A study of Vitis vinifera with 6 samples.

Results

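The genes described here are 7 lipoxygenases of grapevine (Vitis vinifera). 6 of them are neighbouring copies on chromosome 6, VIT_06s0004g01450, VIT_06s0004g01460, VIT_06s0004g01470, VIT_06s0004g01480, VIT_06s0004g01500 and VIT_06s0004g01510, and the seventh is LOXO on chromosome 9, VIT_09s0002g01080. They were selected by gene identifier out of 34369 genes, each with 1 probe on the array, and no probe carried the identifier VIT_06s0004g01490 inside the cluster. The list was chosen from earlier results of these same arrays, among which 2 of the copies had been listed as higher with 35S:VvWRKY26, so the differences between constructs below are a description and carry no test. The study annotates VIT_06s0004g01460 as lipoxygenase LOX2 and VIT_06s0004g01510 as lipoxygenase VvLOXA. The other 5 identifiers are called lipoxygenases after the list only, since the sources used here pair them with no description.

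Lipoxygenases are iron-containing dioxygenases that add molecular oxygen to polyunsaturated fatty acids such as linoleic and linolenic acid. Plant enzymes differ in the carbon that they oxygenate and in their location, and the plastid forms provide the hydroperoxides from which jasmonates and the green leaf volatiles are made. In leaves the family is known for its response to wounding and to pathogens, and jasmonate synthesis continues through allene oxide synthase, a cyclase and beta-oxidation by acyl-CoA oxidases.

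All plantlets were of cv. Sultana, grown in vitro, and all of them, controls included, were vacuum infiltrated at 5 weeks of age with Agrobacterium tumefaciens strain C58C1. In the control group the bacteria carried the pK7WG2.0 vector with a non-coding insert, although the sample labels call these lines wild type, and in the other group they carried 35S:VvWRKY26, the grapevine WRKY factor VvWRKY26 behind the constitutive 35S promoter. Leaves were taken 6 days later, and of 6 plantlets per construct 3 lines were chosen for the arrays by their VvWRKY26 expression, 1 line per array. Expression from the construct is transient and reaches only those cells that the bacteria entered, so each RNA sample is a mixture, in which fewer cells with a transcript and less transcript per cell cannot be told apart.

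Intensities are given as log2 scaled intensity, that is log2 of the deposited processed signal minus the 75th percentile of the same array, so that 0 is the 75th percentile of the gene probes. That percentile lay between 799 and 1613 intensity units over the 6 arrays. The arrays were scanned in 3 sessions of 1 control and 1 35S:VvWRKY26 array, called scans 1 to 3 here: control replicate 1 with 35S:VvWRKY26 replicate 1, control replicate 2 with replicate 3, and control replicate 3 with replicate 2. The file headers give scans 1 and 2 the same slide and the same positions on it. Their values differed, with r = 0.898 across genes between control replicates 1 and 2, the lowest of all pairs. It was 0.951 between 35S:VvWRKY26 replicates 1 and 3. All were therefore treated as separate arrays, and the slide label, also used as a block below, is uncertain. In each scan the control array was at position 1 and the 35S:VvWRKY26 array at position 4, so position and construct cannot be separated. The arrays of scan 2 stood apart, with 94.7% and 94.9% of gene probes well above background against 73.9% to 77.6% on the other 4. VvWRKY26 itself (VIT_08s0040g03070) measured 3.12, 3.25 and 2.57 in the controls and 3.40, 3.69 and 3.32 in the 35S:VvWRKY26 lines, a log2 difference of 0.49 (SE 0.34, unadjusted p = 0.202, limma). The groups were 0.07 apart at their nearest arrays and overlapped before scaling, at 4736 to 14037 units in the controls and 11039 to 15626 with the construct, and within scans 1, 2 and 3 the probe was 1.22-fold, 1.05-fold and 2.17-fold higher. The study checked the overexpression by RT-PCR and qPCR and took lines with high expression. Whether this single probe also reads the transcript of the construct was not tested. The 5 leaf markers of the photosynthetic apparatus were well above background on every array (1 outlier spot of PSBS was left out), but a LHCB3 probe (VIT_00s0181g00180) ranged from 0.99 to 4.87 among the controls alone.

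VvLOXA and LOX2 were the copies that stood higher in the 35S:VvWRKY26 leaves in all 3 scans. VvLOXA (VIT_06s0004g01510) measured 2.18, 2.52 and 1.90 on the control arrays and 3.80, 2.55 and 3.37 on those of the construct, each time in the order of replicates 1, 2 and 3, which is kept below. The groups did not overlap, by the narrow margin of 0.03 between control replicate 2 and 35S:VvWRKY26 replicate 2. Its mean was 2.20 ± 0.31 (SD, n = 3) in the controls and 3.24 ± 0.64 (SD, n = 3) with the construct, a log2 difference of 1.04 (SE 0.44) or 2.06-fold. Before scaling, the processed signal ran from 2989 to 7301 in the controls and from 5013 to 20605 with the construct, so that the ranges overlapped there.

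LOX2 (VIT_06s0004g01460) measured 0.47, 1.57 and 0.34 in the controls and 2.18, 1.02 and 2.09 in the 35S:VvWRKY26 lines. Control replicate 2 lay above 35S:VvWRKY26 replicate 2, so the groups overlapped. The means were 0.79 ± 0.68 and 1.76 ± 0.64 (SD, n = 3 each), and the log2 difference was 0.97 (SE 0.53), or 1.96-fold. Read against a change of 2-fold, which is 1 on the log2 scale, VvLOXA thus fell just inside and LOX2 just outside.

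Within scans 1, 2 and 3 the log2 difference of VvLOXA was 1.63, 0.85 and 0.64, and that of LOX2 was 1.71, 0.51 and 0.68. The difference was widest in scan 1 for both genes, at 3.09-fold for VvLOXA and 3.27-fold for LOX2. Over the 5 arrays left without 35S:VvWRKY26 replicate 2, the difference was 1.39 for VvLOXA and 1.34 for LOX2, and without 35S:VvWRKY26 replicate 1 it was 0.76 for both. The arrays of a scan deviated together from their group means over all genes (r = 0.63, 0.69 and 0.54), and with scan as a block the same differences had an SE of 0.33 for VvLOXA and 0.36 for LOX2. The sign was positive in each of the 23 alternatives computed for either gene, from 0.64 to 1.63 for VvLOXA and from 0.51 to 1.71 for LOX2.

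**Figure D1:**
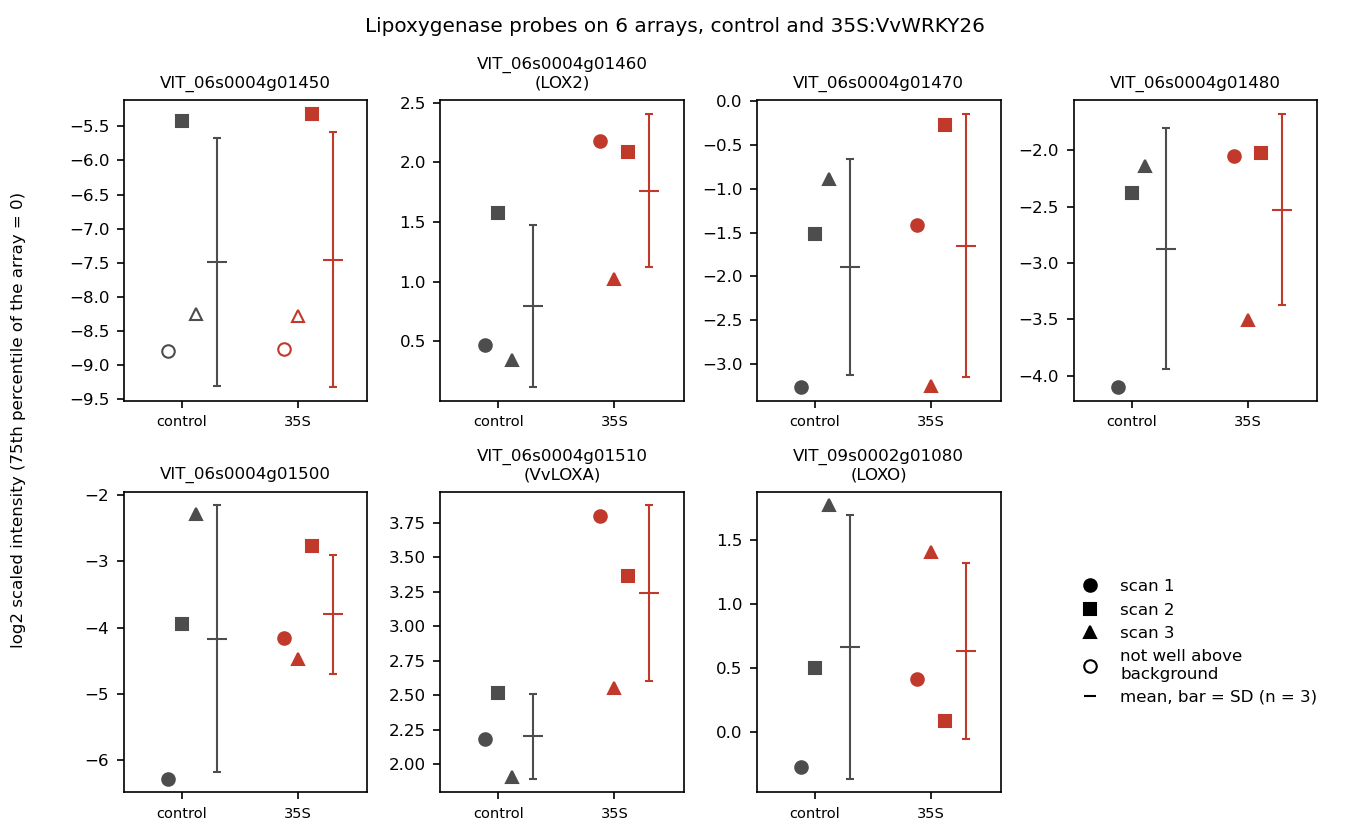
Log2 scaled intensity (vertical axis, 0 = 75th percentile of the array) of each lipoxygenase probe on the 6 arrays, by construct; the marker gives the scan, an open marker a spot not well above background, and the bar the mean with SD (n = 3). VvLOXA is the only panel without overlap between the groups, and VIT_06s0004g01450 has open markers on 4 of its 6 arrays. Vertical axes differ between panels, since the probes of different genes are not on a common scale.

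The 3 copies between LOX2 and VvLOXA in identifier order differed from these 2: each was higher with the construct in scans 1 and 2 and lower in scan 3. The same signs were found for VIT_06s0004g01420, VIT_06s0004g01430 and VIT_06s0004g01440, just before the cluster. VIT_06s0004g01470 measured -3.27, -1.52 and -0.88 in the controls and -1.42, -3.25 and -0.27 in the 35S:VvWRKY26 lines. The lowest control and the lowest overexpressing line were at nearly the same level, and the groups overlapped over most of their range. The difference of the means was 0.24 (SE 0.97), made up of 1.85 in scan 1, 1.24 in scan 2 and -2.37 in scan 3, the last a 5.16-fold lower signal with the construct. The local background around this spot on 35S:VvWRKY26 replicate 3, its brightest array, was 115 units against 20 to 34 on the others, and the part of this in the value was not tested.

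VIT_06s0004g01480 measured -4.10, -2.38 and -2.14 in the controls and -2.05, -3.51 and -2.02 with the construct. Control replicate 1 and 35S:VvWRKY26 replicate 2 were the low arrays, while the other 4 lay within a narrow band. The difference was 0.35 (SE 0.71), with 2.05, 0.35 and -1.36 in scans 1, 2 and 3.

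VIT_06s0004g01500 varied most of the 3, at -6.28, -3.94 and -2.28 in the controls and -4.16, -4.47 and -2.77 with the construct, a 16.0-fold range over the 6 arrays. Its highest and its lowest value were both controls. The lowest, on control replicate 1, was a dim spot of 20.7 units, although marked well above background. It lay near -6.91, the lowest value so marked on that array. The 16.0-fold range and the difference in scan 1 rest on this spot. The difference was 0.37 (SE 1.09), with 2.12, 1.17 and -2.19 in scans 1, 2 and 3, and the ratio of arithmetic means gave -0.20.

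For these 3 copies the mean difference depended on single arrays. Without control replicate 1, the array on which all 3 were lowest among the controls, the differences were -0.45, -0.27 and -0.69 in identifier order. Without 35S:VvWRKY26 replicate 3 they were -0.45, 0.09 and -0.15, and without 35S:VvWRKY26 replicate 2 they were 1.04, 0.84 and 0.70. Without control replicate 3 they were 0.74, 0.71 and 1.31, without control replicate 2 they were 0.43, 0.60 and 0.48, and without 35S:VvWRKY26 replicate 1 they were 0.13, 0.11 and 0.55. The lower signal in scan 3 was found under quantile normalization (-2.17, -1.20 and -1.84), with no scaling (-2.27, -1.26 and -2.09) and under both normexp corrections. In scan 1, normexp on each spot's local background gave 0.24, -0.31 and -1.21, but its fitted background for control replicate 1 was -388 units, on an array with 4 spots below their local background, of which the lowest stood at -15552 units after subtraction. With the median background of each array in its place, scan 1 gave 1.49, 1.43 and 0.96.

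**Figure D2:**
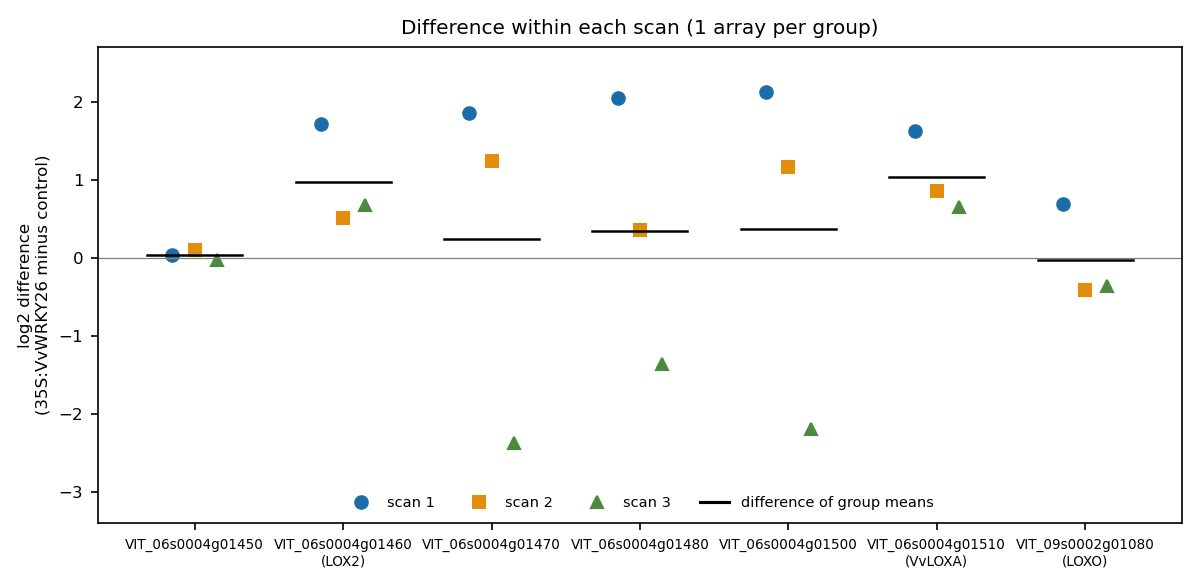
Log2 difference, 35S:VvWRKY26 minus control (vertical axis), of the 7 lipoxygenases within each scan, 1 array per group, with the difference of the group means as a black line. VvLOXA and LOX2 are above 0 in all 3 scans, while VIT_06s0004g01470, VIT_06s0004g01480 and VIT_06s0004g01500 reach 1.85 to 2.12 in scan 1 and -1.36 to -2.37 in scan 3.

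VIT_06s0004g01450, the first copy of the cluster, was well above background only on the 2 arrays of scan 2, 1 in each group. It measured -8.81, -5.42 and -8.26 in the controls and -8.78, -8.29 and -5.32 with the construct, where the processed signal was 24.9 and 36.1 units in scan 2 and between 2.6 and 3.6 units on the other 4 arrays. The values followed the scan, and the arrays of a scan differed by 0.03, 0.10 and -0.03. On 35S:VvWRKY26 replicate 2 its -8.29 was also the value of VIT_00s0253g00080 and VIT_00s0264g00090, so it stood at a floor of that array. The difference of the means was 0.03 (SE 1.27, or 0.27 with scan as a block). In 2 of the 3 lines of either group this copy was not well above background. The differences within scans 1 and 3 and the SE with scan as a block therefore do not measure its level.

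LOXO (VIT_09s0002g01080), outside the cluster, did not share the direction of VvLOXA and LOX2. It measured -0.27, 0.50 and 1.77 in the controls and 0.42, 1.41 and 0.09 with the construct. Both arrays of scan 3 were the highest, and the lines with the construct lay inside the range of the controls. The means were 0.67 ± 1.03 and 0.64 ± 0.69 (SD, n = 3 each), the log2 difference was -0.03 (SE 0.65), and within scans 1, 2 and 3 it was 0.68, -0.41 and -0.36. Leaving out 1 array moved the difference between -0.50, without control replicate 1, and 0.52, without control replicate 3.

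**Figure D3:**
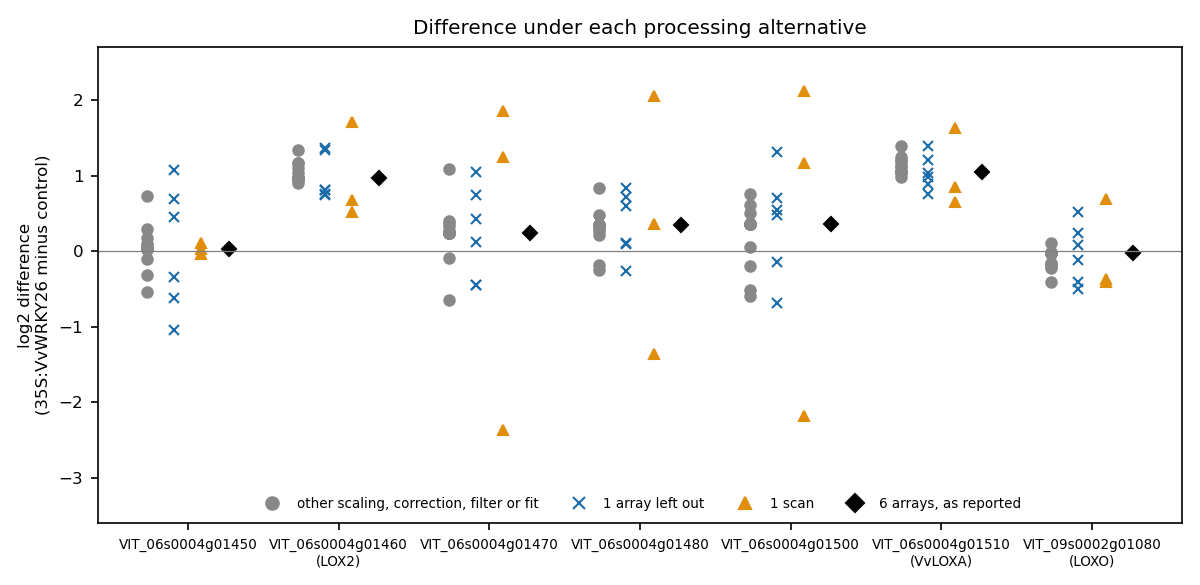
Log2 difference, 35S:VvWRKY26 minus control (vertical axis), of each lipoxygenase over the 6 arrays (diamond), with 1 array left out (crosses), within 1 scan (triangles) and under the other scalings, corrections, filters and fits (circles). The points of VvLOXA and LOX2 stay above 0, between 0.51 and 1.71, and those of the other 5 genes fall on both sides of 0.

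Counted over the 7 listed genes, 6 of the differences were above 0 and 1 below, beside 44.6% of all genes above 0. A further gene annotated as lipoxygenase, VIT_00s0265g00170 (-0.10), is not in this count. Of the 6 above 0, 1 was VIT_06s0004g01450, at 0.03 and well above background on 2 arrays only. The median of the 7 was 0.35 against -0.05 over all genes. By scan this median was 1.71 in scan 1, 0.51 in scan 2 and -0.36 in scan 3, beside 0.02, -0.07 and -0.06 over all genes. Without control replicate 1 it was -0.45, beside -0.22 over all genes. No gene passed an adjusted p of 0.05 (limma, Benjamini-Hochberg) over the 6 arrays, which is 0% of 34369, and none did in the other fits that were run. At an unadjusted p under 0.05 limma had 186 genes higher (0.541%) and 169 lower (0.492%). The 7 are not counted at that threshold, since they were chosen with this contrast known. At least 2-fold higher were 1 of the 7 lipoxygenases, VvLOXA, and 2.01% of all genes. Without 35S:VvWRKY26 replicate 2 these were 3 of the 7, VvLOXA, LOX2 and VIT_06s0004g01470, and 5.18% of all genes.

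Of 34084 genes with a value on all 6 arrays, the 35S:VvWRKY26 lines lay above the controls without overlap for 2.43%, and for 1 of the 7, VvLOXA. In all 3 scans 11.6% of these genes and 2 of the 7 were higher. A higher value in both scan 1 and scan 2 with a lower one in scan 3 was found for 9.4% of the genes and 4 of the 7, the 3 copies between LOX2 and VvLOXA with VIT_06s0004g01450, whose differences were within 0.10 of 0. At least 2-fold higher in scan 1 were 6.62% of the genes and 5 of the 7, and at least 2-fold lower in scan 3 were 15.6% and 3 of the 7. Since the list was chosen with this contrast known, these shares stand beside the counts as a description.

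The scan, which the choice of the list did not use, was then taken as the tested factor with the construct in the model. Over all genes 8784, or 25.6%, differed between scans at an adjusted p of 0.05 (limma). Among them was 1 of the 7 lipoxygenases, VIT_06s0004g01450 (adjusted p = 0.0107, limma). As 4 of its 6 spots were not well above background, this call sets measured spots against dim ones. For LOXO the unadjusted p was 0.0313 and the adjusted p 0.0911, with a mean of 1.59 on the scan 3 arrays against 0.07 and 0.29 in scans 1 and 2. The remaining 5 had adjusted p values from 0.217 to 0.701. These calls were lost with quantile normalization, under which 0 genes passed (6095 at an unadjusted p under 0.05) and VIT_06s0004g01450 had an adjusted p of 0.878.

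The genes on either side of the cluster were compared with it, taking the 5 nearest identifiers with a probe before VIT_06s0004g01450 and the 5 after VIT_06s0004g01510. Of these 10 genes 8 were higher and 2 lower with the construct, with a median of 0.34 (0.35 for the 7 lipoxygenases), a range of -0.94 to 0.48 and none at 2-fold. Both ends of that range were dim probes: VIT_06s0004g01550 was well above background on 2 of 3 arrays with the construct and turned from -0.94 to 0.50 without 35S:VvWRKY26 replicate 2, and VIT_06s0004g01560 was so on 1 of 3 control arrays. The 3 genes just before the cluster resembled the inner copies in sign: VIT_06s0004g01420 differed by 1.81, 0.25 and -0.91 in scans 1, 2 and 3, VIT_06s0004g01430 by 2.02, 0.09 and -1.06, and VIT_06s0004g01440 by 1.77, 0.18 and -0.53. Their differences in scan 1, from 1.77 to 2.02, overlapped those of the inner lipoxygenases, from 1.85 to 2.12, and those in scan 3 were nearer 0. Around LOXO 4 of the 10 nearest genes were higher and 6 lower, with a median of -0.14.

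**Figure D4:**
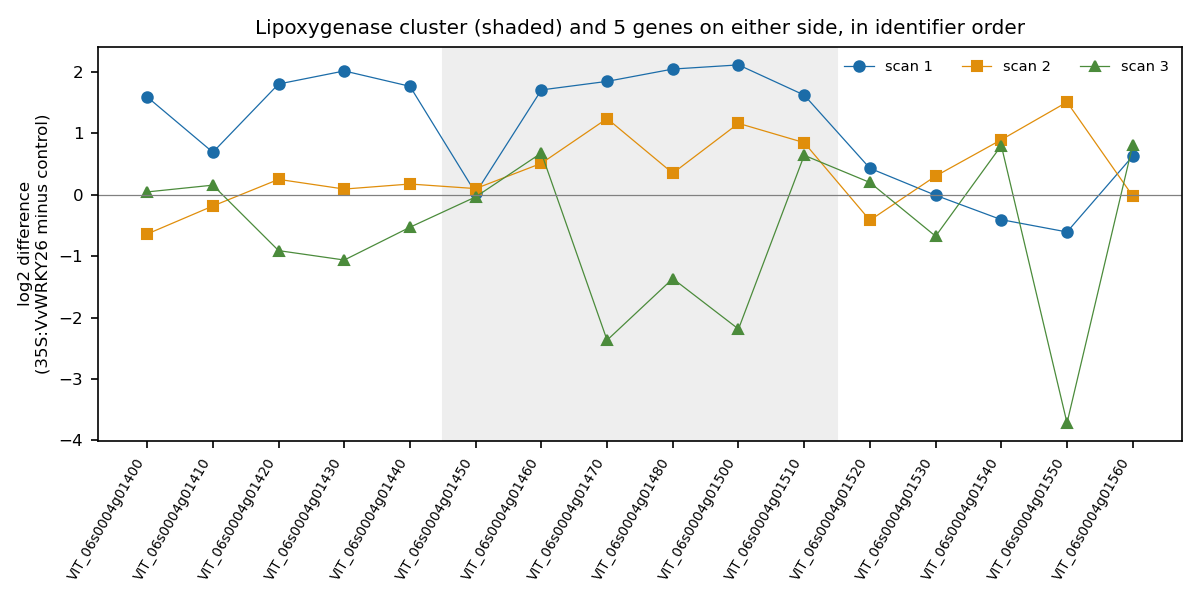
Log2 difference, 35S:VvWRKY26 minus control (vertical axis), within each scan for the 6 lipoxygenases of chromosome 6 (shaded) and 5 genes on either side, in identifier order and not to genomic scale. The genes from VIT_06s0004g01420 to VIT_06s0004g01440 lie at 1.77 to 2.02 in scan 1, close to the lipoxygenases, and VvLOXA and LOX2 are the 2 lipoxygenases above 0 in scan 3.

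Across the 6 arrays VvLOXA and LOX2 varied together (Pearson's r = 0.93), and so did VIT_06s0004g01470 and VIT_06s0004g01480 (r = 0.93), with VIT_06s0004g01500 at r = 0.85 to each of that pair. Between the 2 sets r lay between 0.10 and 0.58, and LOXO had r = -0.40 with VvLOXA and -0.39 with LOX2. The 6 points share 3 scans and 2 constructs, so these values describe the arrays only. Neighbouring copies that are near identical can also be read by each other's probes, which was not tested, since the probe sequences were not used here.

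Among 23459 other genes well above background on all arrays, the 3 with a pattern most like that of VvLOXA over the 6 arrays were VIT_00s0324g00080 (r = 0.987), which the study annotates as a UDP-glucoronosyl and UDP-glucosyl transferase, VIT_00s0131g00200 (r = 0.982), annotated as Hcr2-0B, and VIT_06s0009g00980 (r = 0.978). Only 73 genes (0.311%) had r above 0.9 with VvLOXA. For LOXO, 1003 genes (4.28%) did, led by VIT_05s0020g03710 (r = 0.999), VIT_02s0025g04320 (r = 0.997) and VIT_03s0097g00090 (r = 0.997). Each of these 3 was highest on the 2 arrays of scan 3, as LOXO was.

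VvLOXA and LOX2 stand in the study's lipid metabolic process category with 9 other genes, which encode carboxyesterases, patatins (acyl hydrolases that release fatty acids from lipids), an esterase/lipase/thioesterase family protein, a fatty acid elongase and a serine carboxypeptidase. That category was filled by the study from these same arrays, so its direction is no independent evidence. All 9 were higher with the construct in each of the 3 scans, 7 at 2-fold or more, and their median was 1.15. The range ran from 0.87 for a carboxyesterase CXE20 (VIT_16s0100g00010) to 3.15 for the serine carboxypeptidase S10 (VIT_03s0091g01290, SE 0.68), and 0 passed the adjusted threshold (limma).

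The 10 oxylipin and jasmonate genes that could be taken from the study's annotation, which was at hand only in part, comprised 7 methyl jasmonate esterases, which release jasmonate from its methyl ester, 2 acyl-CoA oxidases (ACX1 and ACX5) and the jasmonate repressor VvJAZ11. Well above background on all arrays were 7 of the 10. Over the 6 arrays 6 were higher and 4 lower, with a median of 0.37, and 0 had an unadjusted p under 0.05. In scan 1, 9 of the 10 were higher, with a median of 0.99, against 2 in scan 2 (-0.38) and 5 in scan 3 (-0.02). Of all 34369 genes 17967, 15694 and 16007 were higher in scans 1, 2 and 3. The 7 esterases have close identifiers, from VIT_00s0253g00080 to VIT_00s0253g00170. On control replicate 1, VIT_00s0253g00080, VIT_00s0253g00100 and VIT_00s0253g00110 measured only -8.53, -8.92 and -6.86. They were well above background on 0, 2 and 2 of the 3 control arrays. VvJAZ11 (VIT_17s0000g02230) was the highest, at 1.05 (SE 0.71), with 0.61, 2.32 and 0.22 in scans 1, 2 and 3, and ACX5 (VIT_00s0299g00010) the lowest, at -0.31 (SE 0.67). The 4 lipases and phospholipases listed had a median of 0.16, from -0.16 for VIT_00s0264g00090 to 0.35 for VIT_00s0264g00100, both annotated as phospholipase D delta. The first was well above background on 2 of 3 arrays in each group, and without 35S:VvWRKY26 replicate 2, on which it measured -8.29, its difference was 1.03. A further gene annotated as lipoxygenase, VIT_00s0265g00170, measured -5.70, -4.41 and -4.25 in the controls and -5.92, -5.13 and -3.59 with the construct, a difference of -0.10 (SE 0.74, unadjusted p = 0.901). The 5 leaf markers had a median of 0.07, with -0.40 and 0.90 in scans 1 and 2 and, over the 4 of them with a value there, 0.47 in scan 3. Their part in the differences above was not tested.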

How the data were processed

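RNA of leaves was measured on 6 one-color Agilent arrays, 1 plantlet line each. The authors deposited spot intensity values from Feature Extraction 10.5.1.1, background-subtracted and detrended (processed signal), with median spot and local background intensity and quality marks, and a table scaled on the 75th percentile, in which the column of 35S:VvWRKY26 replicate 2 equals the mean of replicates 1 and 3 in all 34369 rows. Here log2 processed signal minus each array's 75th percentile was used, without the 1417 control spots and with outlier spots missing. All genes were fitted in limma 3.58.1 (R 4.3.3; lmFit, eBayes, two-sided, Benjamini-Hochberg), without covariates; 4 residual and 1.88 prior degrees of freedom. The step was run on simulated data with independent noise and changes far larger than 2-fold, which cannot show how it performs on 2-fold differences or with shared scans. The lines are separate plantlets, and their number limits the precision; an exact test of 3 against 3 arrays cannot go below p = 0.1.

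The members and the gene lists were chosen with earlier results of these data known. Genes named are the members, VvWRKY26, the highest and lowest of each list, the 5 nearest identifiers on either side, and the 3 genes with the highest r; other neighbours were named after their values were seen. Alternatives covered background correction (normexp, offset 50), scaling, dim and outlier spots, the authors' table, blocks, array weights, an intensity trend and each array left out. Normexp with median background, the test of scans and the other scalings within scans were added after seeing the data. Python 3.11.15 with pandas 2.3.3 served for the tables. No sequences or coordinates are given.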

Additional observations from a re-analysis of the deposited data

How the results depend on the processing

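VvLOXA and LOX2 were higher with the construct in all 23 alternatives, whereas each of the other 5 genes took both signs. Several of the 23, such as the blocks and the intensity trend, left the differences of VvLOXA and LOX2 unchanged by construction. The median over the 7 lipoxygenases (0.35) became -0.22 with normexp on local background (all genes, -0.33), -0.19 with array weights (all genes, -0.14) and -0.36 within scan 3 (all genes, -0.06). With 1 array left out it ran from -0.45 without control replicate 1 (all genes, -0.22) to 0.84 without 35S:VvWRKY26 replicate 2 (all genes, 0.05). It was 0.21 with normexp on each array's median background; the local fit had a fitted background of -388 and -138 units for control replicate 1 and 35S:VvWRKY26 replicate 3, against 2.9 to 12.2 elsewhere. The count at least 2-fold higher (1) was 2 with either normexp, quantile normalization or no scaling, 3 with the authors' table, 0 with array weights, and 5, 2 and 0 within scans 1, 2 and 3. With 1 array left out it ran from 0 (without 35S:VvWRKY26 replicate 1 or 3) to 3 (without control replicate 2 or 35S:VvWRKY26 replicate 2).

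No gene passed the adjusted threshold in any fit. Genes at an unadjusted p under 0.05 (186 higher, 169 lower) were 306 and 277 with normexp on median background, 478 and 377 with quantile normalization, 73 and 72 with no scaling, 748 and 524 with the authors' table, 343 and 285 with an intensity trend, 300 and 441 with array weights, 257 and 280 with slide as a block, 587 and 1235 with scan as a block, and 399 and 380 with the methods' t-test. With 1 array left out they ran from 75 to 530 higher and from 84 to 683 lower. The replicate block gave 97 higher and 149 lower. The deviations of same-numbered arrays correlated at 0.63, -0.28 and -0.41 for replicates 1, 2 and 3, and only those of replicate 1 share a scan. The deviations of the arrays of a scan correlated at 0.63, 0.69 and 0.54, the first being that same pair (scan as a block, above). The 8784 genes that differed between scans became 0 with quantile normalization and 0 with only probes well above background on all arrays of a group, and the cause was not tested. The lipoxygenase among them, VIT_06s0004g01450, was lost with quantile normalization (0 of 7), and the filter left it out of the test. Signal limits VIT_06s0004g01450, which was measured on 2 arrays only, and VIT_06s0004g01500, which was dim on control replicate 1.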
